A study of Rattus norvegicus with 6 samples.

Results

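The mitochondrial ribosomal protein genes are the nuclear genes that encode the protein parts of the ribosome inside mitochondria. They were taken as every protein-coding gene of the expression table whose symbol starts with Mrpl or Mrps followed by a number, which gave 76 of 34045 listed genes, 46 with large subunit (Mrpl) names and 30 with small subunit (Mrps) names. Their RNA was measured by bulk RNA sequencing in tissue from defects in the calvaria, the roof of the skull, of male wild-type Sprague-Dawley rats. A hydrogel called CGG-Cit had been implanted in 3 samples and a hydrogel called CGG in the other 3, and all were taken at week 4 after surgery. The labels spell out neither gel name, and they do not say whether each library came from its own rat. The p-values therefore describe the spread of these libraries alone, part of which can be technical. The series title ties the gels to a metabolite of the tricarboxylic acid cycle, a mitochondrial pathway, and speaks of neutrophils, mesenchymal stem cell recruitment and histone acetylation. The comparison asked how the genes of the mitochondrial ribosome stood in CGG-Cit defects relative to CGG defects.

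The mitochondrial ribosome translates the few mRNAs that the mitochondrial genome encodes, all of them for membrane subunits of the respiratory chain and the ATP synthase. Its proteins are made in the cytosol and imported, so that nuclear and mitochondrial gene expression meet in this particle. The small subunit holds the mRNA and the decoding centre, and the large subunit joins amino acids and feeds the new protein into the inner membrane. Part of the particle is inherited from the bacterial ancestor and part was added later in mitochondria, and symbols do not always give the place of a protein. The products of Mrps18a and Mrps30 sit in the large subunit, and that of Mrps36 is a subunit of the 2-oxoglutarate dehydrogenase complex of the tricarboxylic acid cycle.

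Levels are given in FPKM, fragments per kilobase of gene, scaled to a library size, which can be compared between genes because it is per length. The libraries held 14744207 to 16224920 assigned fragments, recovered from the table. These were 96.1% to 97.2% of the library size that the deposited FPKM imply in CGG-Cit and 94.4% to 103.8% in CGG, so the deposited scaling did not follow the assigned fragments, and its basis is not given in the sources used here. Of the 76 genes 74 were above 0 in at least 1 library. Mrpl36 and Mrpl53 were listed at 0 in all 6 libraries, and Mrps21l, named after Mrps21, reached 0.245, 0.243 and 1.12 FPKM in CGG-Cit libraries, against 0, 0.240 and 0 FPKM in CGG libraries. Those 3 genes lay under the filter of a mean of 0.5 FPKM and were not tested, which left 44 large subunit and 29 small subunit genes. The median level of the tested genes was 18.1 FPKM in the large and 17.1 FPKM in the small subunit, over both groups together. Most of them kept to a narrow band of levels, with 36 of 44 large subunit and 23 of 29 small subunit genes between 10 and 50 FPKM.

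Mrpl33, which encodes a small protein of the large subunit, was the most abundant of the 76, and Mrpl17, another protein with a bacterial counterpart, came next. Mrpl17 had 94.8, 95.3 and 92.5 FPKM in CGG-Cit libraries, against 86.6, 97.8 and 101 FPKM in CGG libraries, so its groups overlapped. Next came Mrpl27, a protein near the site of peptide bond formation, with 57.5, 44.7 and 40.4 FPKM in CGG-Cit libraries, against 46.9, 52.5 and 51.4 FPKM in CGG libraries. Only the steps from Mrpl33 to Mrpl17 and from Mrpl17 to Mrpl27 separated neighbours in the order of levels without overlap of their 6 libraries: in the other 71 of 73 steps the libraries of neighbouring genes overlapped. The small subunit genes spanned less, with Mrps21 at the top of the order by mean level, followed by Mrps18a and Mrps26. Mrps18a averaged 30.9 ± 5.55 FPKM in CGG-Cit and 27.3 ± 1.30 FPKM in CGG (SD, n = 3 each). Mrps26 averaged 26.9 ± 1.45 FPKM in CGG-Cit and 31.1 ± 3.76 FPKM in CGG (SD, n = 3 each). At the low end of the tested small subunit genes, Mrps10 averaged 4.32 ± 0.449 FPKM in CGG-Cit and 6.19 ± 1.15 FPKM in CGG (SD, n = 3 each; limma adjusted p = 0.103). Next to it, Mrps2 averaged 5.29 ± 0.502 FPKM in CGG-Cit and 5.43 ± 0.858 FPKM in CGG (SD, n = 3 each).

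**Figure D1:**
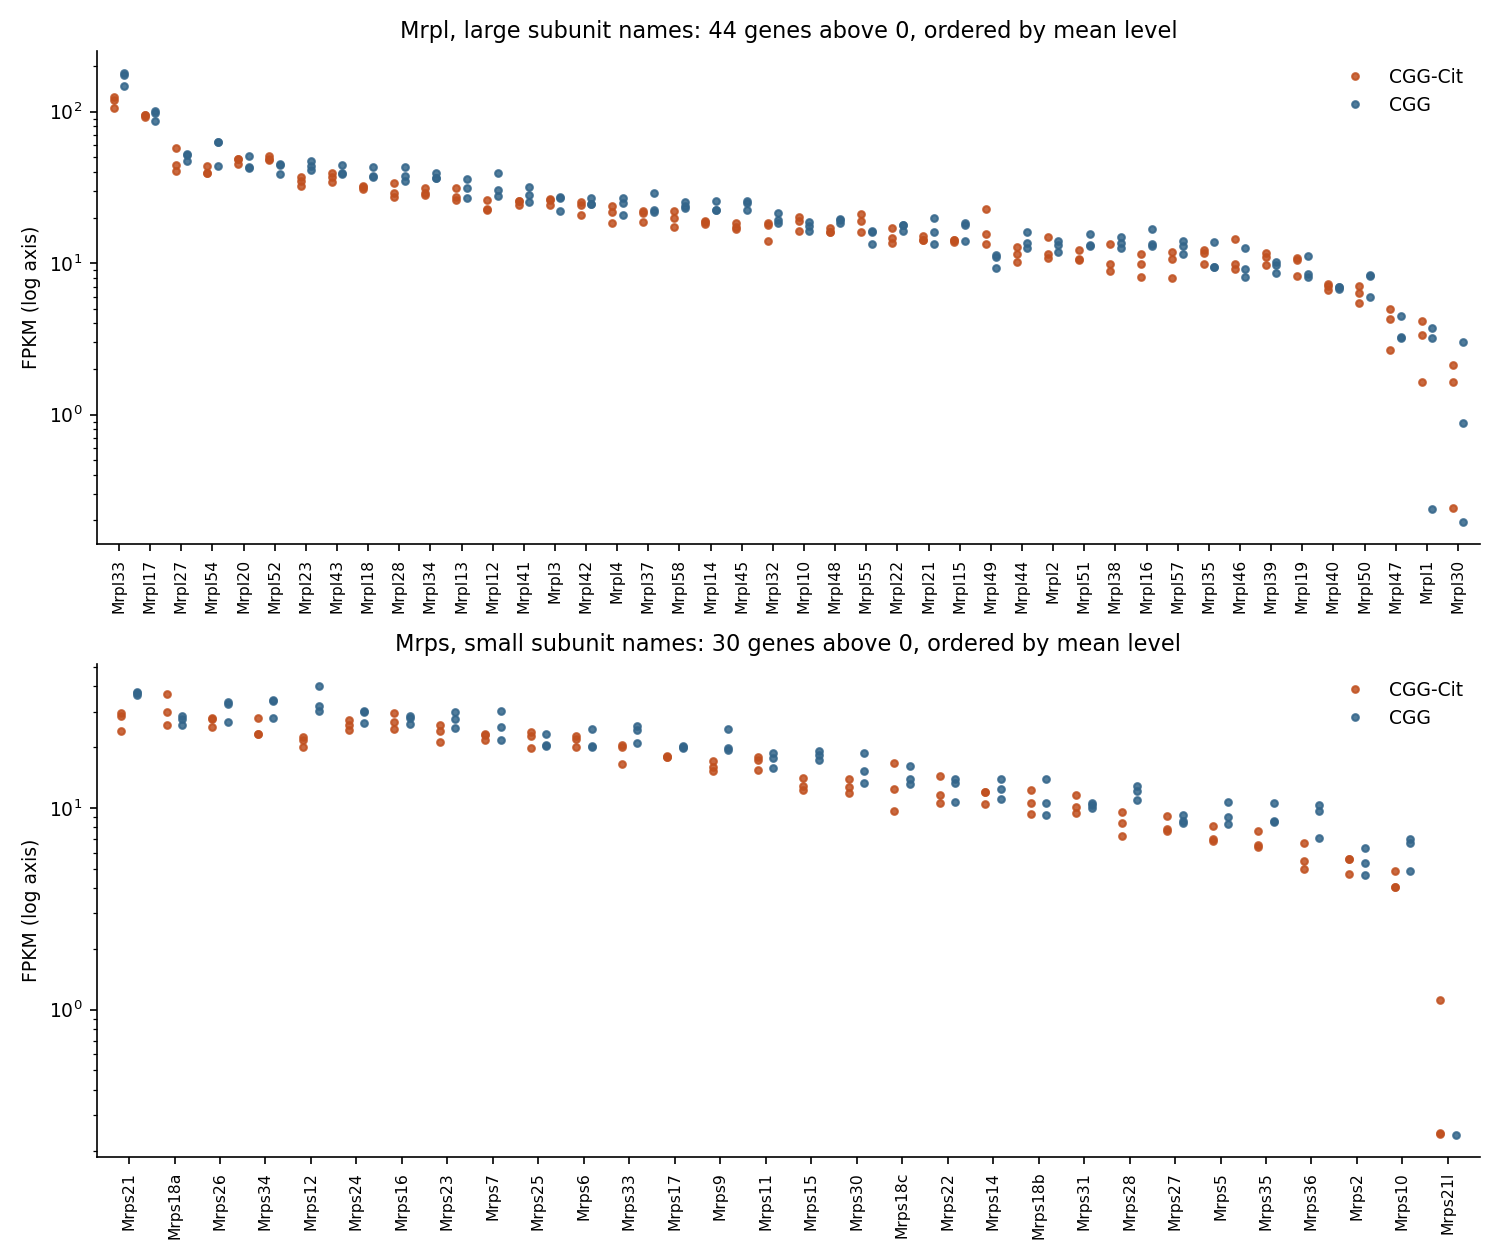
FPKM (log axis) of each library for every gene above 0 in any library (values of 0 cannot be drawn), with CGG-Cit points left of CGG points, in order of the mean level within each subunit. Mrpl33 and Mrpl17 stand above the other large subunit genes, and the points of Mrpl1 and Mrpl30 scatter widely within both groups.

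Among the large subunit genes, 2 varied far more between libraries of a group than the rest. Mrpl1, whose product forms the mobile stalk beside the exit site of the tRNA, had 1.65, 4.14 and 3.33 FPKM in CGG-Cit libraries, against 3.22, 3.75 and 0.237 FPKM in CGG libraries. The low value of CGG 3 rests on 4 fragments, where the other 5 libraries held 28 to 71. Mrpl30 had 1.65, 0.243 and 2.14 FPKM in CGG-Cit libraries, against 3.04, 0.197 and 0.874 FPKM in CGG libraries. Both groups of Mrpl30 spanned from under 1 FPKM to over 2 FPKM, and the gene overlaps 3 other listed genes, among them Mitd1. Since no strand setting is given in the sources used here, fragments of overlapping genes on opposite strands cannot be told apart.

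Markers of several cell types differed between the groups, and in bulk tissue fewer cells of a type and less RNA per cell cannot be told apart. All 9 tested skeletal muscle markers fell, with a summed level of 33.9 to 269 FPKM in CGG-Cit, against 5484 to 7121 FPKM in CGG. So did 9 of 9 tested neutrophil markers (2352 to 6131 FPKM in CGG-Cit, against 14760 to 16810 FPKM in CGG), 9 of 9 erythroid markers (385 to 727 FPKM in CGG-Cit, against 1224 to 1523 FPKM in CGG) and 10 of 10 markers of cycling cells (215 to 331 FPKM in CGG-Cit, against 438 to 601 FPKM in CGG). In the other direction, 9 of 10 macrophage markers rose (1538 to 2384 FPKM in CGG-Cit, against 835 to 906 FPKM in CGG) and 6 of 10 fibroblast markers rose, although the summed levels of the fibroblast list overlapped (7013 to 9811 FPKM in CGG-Cit, against 7724 to 10350 FPKM in CGG). Another fibroblast marker was lower without passing, at a log2 difference of -0.65, with every CGG-Cit value below every CGG value. Of the 8 osteoblast markers, which were present in every library of this bone tissue, 5 fell (1681 to 4655 FPKM in CGG-Cit, against 5078 to 6448 FPKM in CGG). These counts are for FPKM as deposited, where 9.78% of all genes tested fell and 7.75% rose. After TPM rescaling, where 5.94% fell and 13.8% rose, the muscle, neutrophil and erythroid counts were the same. The other counts were then 7 of 10 cycling and 3 of 8 osteoblast markers lower, and 10 of 10 macrophage and 8 of 10 fibroblast markers higher. No marker was at 0 in all libraries, and Ltf was too low to be tested. Their part in the differences of the ribosomal protein genes was not tested.

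In CGG-Cit defects 8 of the 73 tested genes fell and none rose in FPKM as deposited, whereas none fell and 1 rose after rescaling to TPM, which gives every library 1 fixed total. A gene passed at a Benjamini-Hochberg adjusted p under 0.05 over all 15965 genes tested, with limma's moderated test on log2(FPKM + 1). The 8 that fell were 4 large subunit genes, Mrpl45, Mrpl33, Mrpl34 and Mrpl14, and 4 small subunit genes, Mrps12, Mrps15, Mrps21 and Mrps28. That is 9.09% of the large and 13.8% of the small subunit genes tested, while 9.78% of all genes tested passed in the lower direction and 7.75% in the higher, so the share that fell lay near the background. All 8 differences stayed below 0 after rescaling to TPM, at -0.17 (Mrpl14) to -0.47 (Mrps12), and none of the 8 passed there. At an unadjusted p under 0.05, 13 large subunit genes were lower and 1 higher, and 11 small subunit genes were lower and none higher, where 18.6% of all genes tested were lower and 16.7% higher. With limma's voom on the recovered fragments, 2 large and 3 small subunit genes fell and none rose, where 9.95% of all genes tested fell and 8.42% rose.

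Mrps12 encodes a protein of the decoding centre, where codon and tRNA are matched. It had 19.9, 21.8 and 22.5 FPKM in CGG-Cit libraries, against 30.2, 31.9 and 40.1 FPKM in CGG libraries. All 3 CGG-Cit values lay below all 3 CGG values, with CGG 3 the highest. The log2 difference was -0.64 ± 0.126 (SE), with a limma adjusted p of 0.0233 (0.0167 to 0.0771 over 18 alternatives). Mrps12 passed in 13 of those 18.

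Mrpl45 encodes the protein that holds the ribosome to the inner membrane at the mouth of the exit tunnel. It had 17.4, 18.3 and 16.9 FPKM in CGG-Cit libraries, against 22.3, 25.1 and 25.6 FPKM in CGG libraries. The groups did not overlap and differed by more than the spread within either. Its log2 difference was -0.45 ± 0.0919 (SE), with a limma adjusted p of 0.0249 (0.0200 to 0.0871 over the alternatives).

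Mrps15 encodes a protein that binds the small subunit rRNA early in assembly in bacteria. It had 14.0, 12.8 and 12.2 FPKM in CGG-Cit libraries, against 18.3, 19.1 and 17.2 FPKM in CGG libraries. Here again the groups did not overlap. This gave a log2 difference of -0.46 ± 0.0945 (SE), with a limma adjusted p of 0.0253 (0.0137 to 0.103 over the alternatives).

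Mrpl33, the most abundant of the 76 genes by mean FPKM, had 120, 106 and 125 FPKM in CGG-Cit libraries, against 148, 179 and 174 FPKM in CGG libraries. CGG 1 was the CGG library nearest to the CGG-Cit values, and the groups did not overlap. The log2 difference was -0.51 ± 0.114 (SE), with a limma adjusted p of 0.0298 (0.0205 to 0.102 over the alternatives).

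Mrps21, the highest of the small subunit genes, had 28.5, 29.7 and 24.2 FPKM in CGG-Cit libraries, against 36.5, 37.7 and 37.3 FPKM in CGG libraries. CGG-Cit 3 was the lowest library and the 3 CGG values lay within 2 FPKM of each other. This gave a log2 difference of -0.43 ± 0.0994 (SE), with a limma adjusted p of 0.0323 (0.0250 to 0.141 over the alternatives). Its namesake Mrps21l drew too few fragments to be tested.

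Mrpl34, Mrps28 and Mrpl14 passed closer to the threshold. Mrpl34, a small protein with a bacterial counterpart, averaged 29.5 ± 1.65 FPKM in CGG-Cit and 37.7 ± 1.71 FPKM in CGG (SD, n = 3 each), with a limma adjusted p of 0.0387. Mrps28, which overlaps 2 listed genes at or near 0 FPKM, averaged 8.41 ± 1.16 FPKM in CGG-Cit and 12.0 ± 0.915 FPKM in CGG (SD, n = 3 each), with a limma adjusted p of 0.0470. Mrpl14, which lies at the face that meets the small subunit, averaged 18.5 ± 0.431 FPKM in CGG-Cit and 23.6 ± 1.86 FPKM in CGG (SD, n = 3 each), with a limma adjusted p of 0.0483. None of the 3 had overlapping groups. The 8 genes drew 141 to 866 fragments per library.

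**Figure D2:**
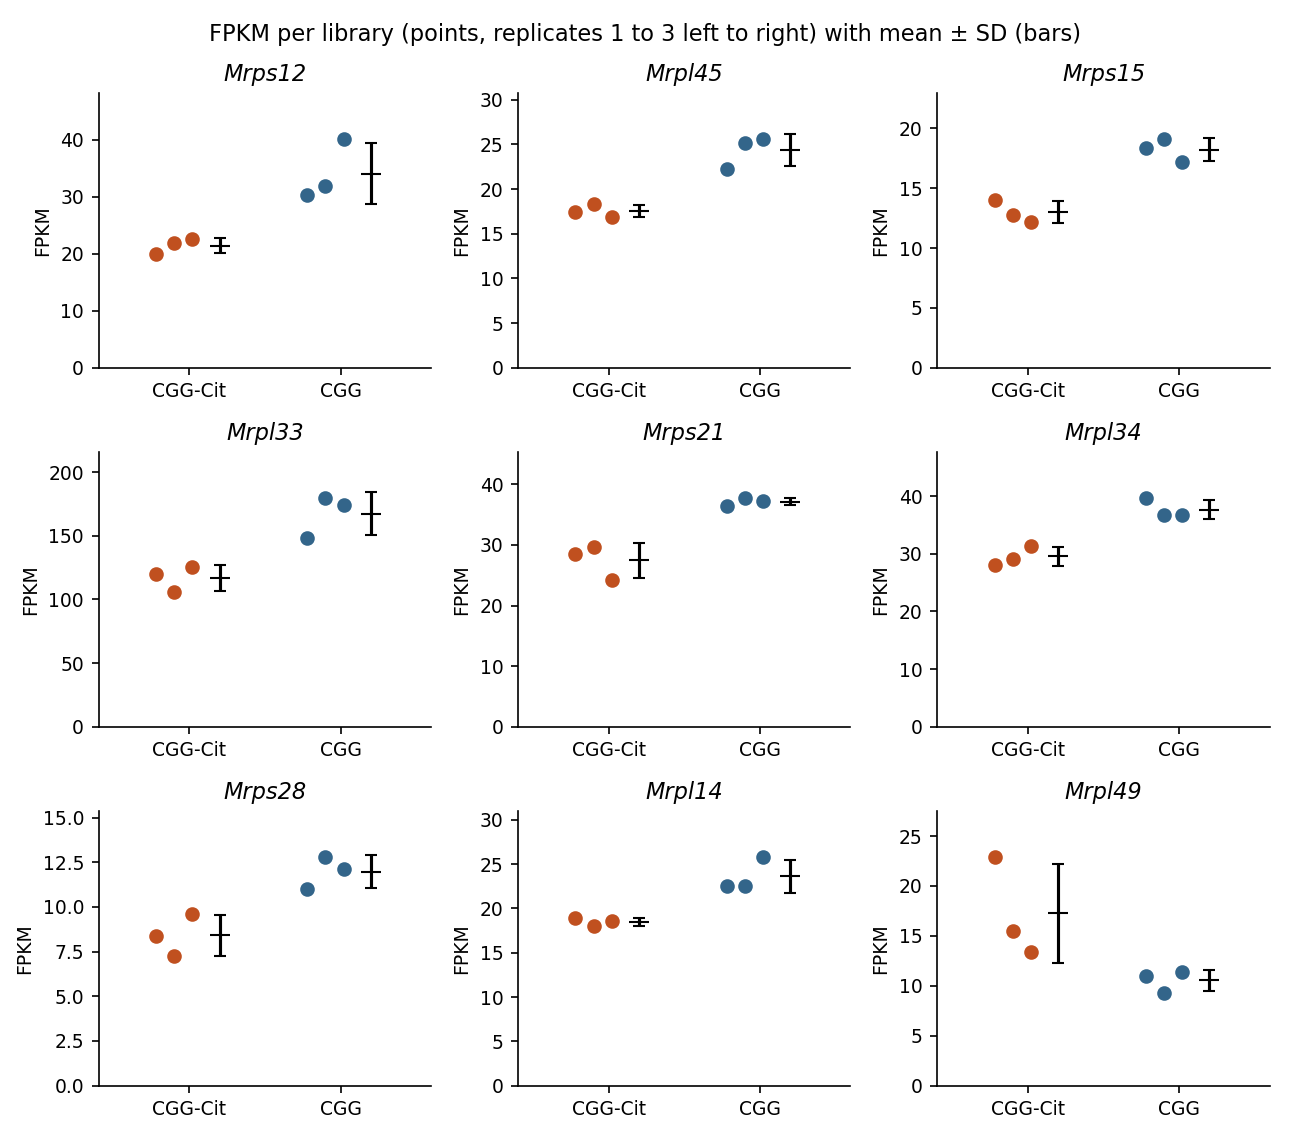
FPKM of each library (points) with the mean ± SD (bars) for the 8 genes that passed and for Mrpl49, CGG-Cit left of CGG, with axes that start at 0. In the first 8 panels every CGG-Cit point lies below every CGG point in FPKM as deposited, though none of the 8 passed after TPM rescaling, and in the Mrpl49 panel every CGG-Cit point lies above.

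The 8 calls depended on which scaling of the libraries was used and on single libraries. All 8 still passed when libraries were scaled by the median ratio of their genes. The same held for equal totals without the 50 most abundant genes. With quantile normalization 7 of the 8 passed. With the recovered fragments as library size, a setting added after the data were seen, 2 large and 3 small subunit genes fell and none rose. After TPM rescaling, 0 of the 73 genes passed in the lower direction and 1, Mrpl49, in the higher, while all genes gave 13.8% higher and 5.94% lower calls in place of 7.75% and 9.78%. The count that fell was 1 without CGG-Cit 1, 0 without CGG-Cit 2, 7 without CGG-Cit 3, 4 without CGG 1, 0 without CGG 2 and 0 without CGG 3. Calls over all genes also changed widely as single libraries were left out, with ranges given below. The counts alone therefore do not set the 73 genes apart.

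Most genes of the particle had small differences below 0 in FPKM as deposited. The median log2 difference was -0.17 over the 44 large subunit genes and -0.17 over the 29 small subunit genes, against 0.00232 over all 15965 genes tested. In the large subunit 30 of 44 differences were below 0, and in the small subunit 26 of 29, where 49.8% of all genes tested were below 0. The groups did not overlap, with CGG-Cit lower, in 13 large subunit and 12 small subunit genes (22.1% of all genes tested), and with CGG-Cit higher in 2 large subunit genes and no small subunit gene (19.6% of all genes tested). TPM rescaling moved the median of all genes to 0.16 and the medians of both subunits to -0.00433 (large) and -0.00533 (small), so that relative to all genes they were -0.16 and -0.17. Under that scaling 29 of 44 large subunit and 25 of 29 small subunit genes lay below the median of all genes.

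**Figure D3:**
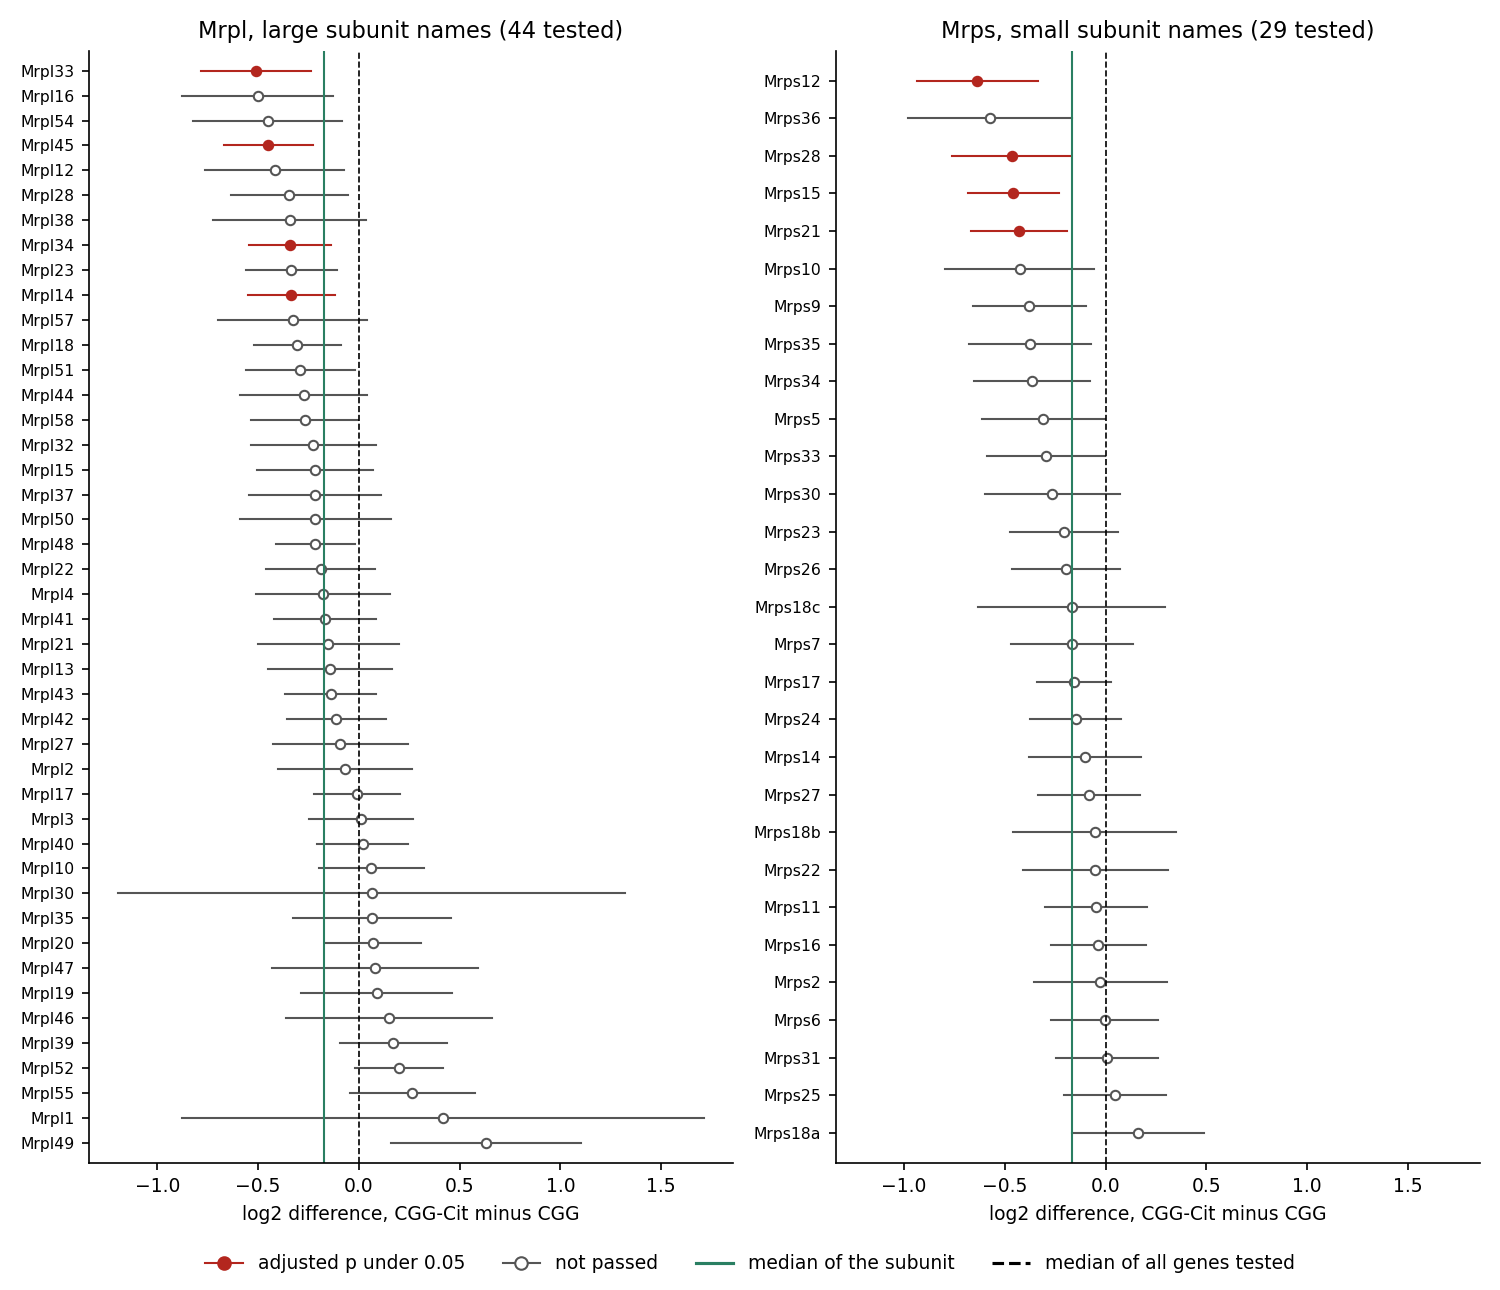
Log2 difference, CGG-Cit minus CGG on log2(FPKM + 1), with 95% confidence intervals for each tested gene, large subunit names left and small subunit names right. Filled red points passed, and the medians of both subunits (green lines, -0.17 in each) lie left of the median of all genes (dashed) in FPKM as deposited. After TPM rescaling they were -0.00433 and -0.00533, with all genes at 0.16.

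The summed level of the 76 genes was 1581, 1494 and 1480 FPKM in CGG-Cit libraries, against 1614, 1788 and 1844 FPKM in CGG libraries. CGG 1 lay close to CGG-Cit 1, and the groups did not overlap. As a share of all FPKM of a library, the genes took 0.276% to 0.294% in CGG-Cit and 0.273% to 0.305% in CGG, ranges that overlap. The summed FPKM of all genes was itself lower in CGG-Cit, 534149 to 542517, against 567676 to 655665 in CGG. As a share of the assigned fragments, the genes took 0.157% to 0.169% in CGG-Cit and 0.173% to 0.188% in CGG, ranges that do not overlap. The groups thus stood apart in summed FPKM and in the share of fragments, and overlapped in the share of all FPKM.

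The mean log2 level of the large subunit genes was 0.30, 0.24 and 0.32 above that of the small subunit genes in CGG-Cit libraries, against 0.22, 0.18 and 0.19 in CGG libraries. The groups did not overlap in this balance, nor when Mrps18a and Mrps30 were counted in the large subunit, where their proteins sit, and Mrps36 was left out (0.29, 0.23 and 0.32 in CGG-Cit, against 0.20, 0.17 and 0.19 in CGG). Without Mrpl1, Mrpl30 and Mrpl49, a choice made after their values were seen that makes the comparison a description only, the balance was 0.43, 0.38 and 0.44 in CGG-Cit, against 0.35, 0.35 and 0.40 in CGG, where CGG-Cit 2 lay below CGG 3. By origin, 7 of 42 tested genes with a bacterial counterpart fell (median log2 difference -0.16), and 1 of 28 mitochondria-specific genes, Mrpl45 (median -0.21), where 9.78% of all genes tested fell, while 3 tested genes were assigned to neither. After TPM rescaling none of either origin fell and 1 mitochondria-specific gene, Mrpl49, rose, and the medians were 0.00778 (bacterial counterpart) and -0.04 (mitochondria-specific). The difference between these 2 origins was not tested.

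Several proteins with duties beyond the core of the ribosome are encoded by genes that did not pass. Mrpl12 and Mrpl10 form the stalk that recruits translation factors. Mrpl12 averaged 23.8 ± 1.94 FPKM in CGG-Cit and 32.4 ± 6.13 FPKM in CGG (SD, n = 3 each; limma adjusted p = 0.0915). Mrpl10 averaged 18.4 ± 1.88 FPKM in CGG-Cit and 17.6 ± 1.32 FPKM in CGG (SD, n = 3 each; limma adjusted p = 0.725). Mrpl58, which releases peptides from stalled ribosomes, averaged 19.9 ± 2.44 FPKM in CGG-Cit and 24.0 ± 1.24 FPKM in CGG (SD, n = 3 each; limma adjusted p = 0.139). Of these 3, Mrpl12 and Mrpl58 had groups that did not overlap.

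Mrps36, the 2-oxoglutarate dehydrogenase subunit, had 4.99, 6.72 and 5.43 FPKM in CGG-Cit libraries, against 7.06, 10.4 and 9.67 FPKM in CGG libraries. The groups did not overlap, but the log2 difference of -0.57 ± 0.171 (SE) had a limma adjusted p of 0.0631. The 3 variants of one bacterial protein, Mrps18a, Mrps18b and Mrps18c, had log2 differences of 0.16, -0.06 and -0.17, none past the threshold, and the sign of Mrps18b turned after TPM rescaling (0.11). Mrps27, an RNA-binding protein with pentatricopeptide repeats, averaged 8.22 ± 0.793 FPKM in CGG-Cit and 8.73 ± 0.428 FPKM in CGG (SD, n = 3 each). Mrps22, Mrpl3 and Mrpl44, in which human variants cause mitochondrial disease, did not pass, with limma adjusted p-values of 0.837, 0.947 and 0.192.

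The gene that stood apart in the other direction was Mrpl49, a mitochondria-specific protein of the large subunit, singled out after its values were seen. It had 22.9, 15.5 and 13.3 FPKM in CGG-Cit libraries, against 10.96, 9.30 and 11.4 FPKM in CGG libraries. CGG-Cit 1 was the highest and the groups did not overlap. The log2 difference was 0.63 ± 0.198 (SE), with a limma adjusted p of 0.0714 as deposited and 0.0404 after TPM rescaling (0.0388 to 0.175 over the alternatives). Mrpl49 overlaps Syvn1 on the opposite strand, which averaged 15.7 ± 1.56 FPKM in CGG-Cit and 19.6 ± 2.37 FPKM in CGG (SD, n = 3 each; limma adjusted p = 0.139). Mrpl52, also named after its values were seen, was the other tested gene with every CGG-Cit value above every CGG value (the untested Mrps21l, given above, was a further one), at 49.2 ± 1.26 FPKM in CGG-Cit and 42.8 ± 3.65 FPKM in CGG (SD, n = 3 each; limma adjusted p = 0.174).

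Genes that share a start region with another gene are frequent in this family. Of the 76 genes 16 (21.1%) had a protein-coding neighbour on the opposite strand whose listed start lay within 1000 bases and pointed away, against 5.66% of the 22250 protein-coding genes. In 14 distinct pairs both genes were tested, and both differences had the same sign in 6 of them in FPKM as deposited and in 10 after TPM rescaling. Mrps12 starts 16 bases from Sars2, the mitochondrial seryl-tRNA synthetase, which averaged 3.15 ± 0.381 FPKM in CGG-Cit and 3.68 ± 0.509 FPKM in CGG (SD, n = 3 each; limma adjusted p = 0.436). Mrps11 and Mrpl46, a small and a large subunit gene, start 72 bases apart, and neither passed (log2 differences -0.05 and 0.15 as deposited, 0.12 and 0.32 after TPM rescaling). Mrpl47 starts 266 bases from Ndufb5, a complex I subunit gene. Ndufb5 fell, to 29.7 ± 3.02 FPKM in CGG-Cit, against 48.0 ± 8.11 FPKM in CGG (SD, n = 3 each; limma adjusted p = 0.0295), while Mrpl47 averaged 3.97 ± 1.17 FPKM in CGG-Cit and 3.64 ± 0.698 FPKM in CGG.

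**Figure D4:**
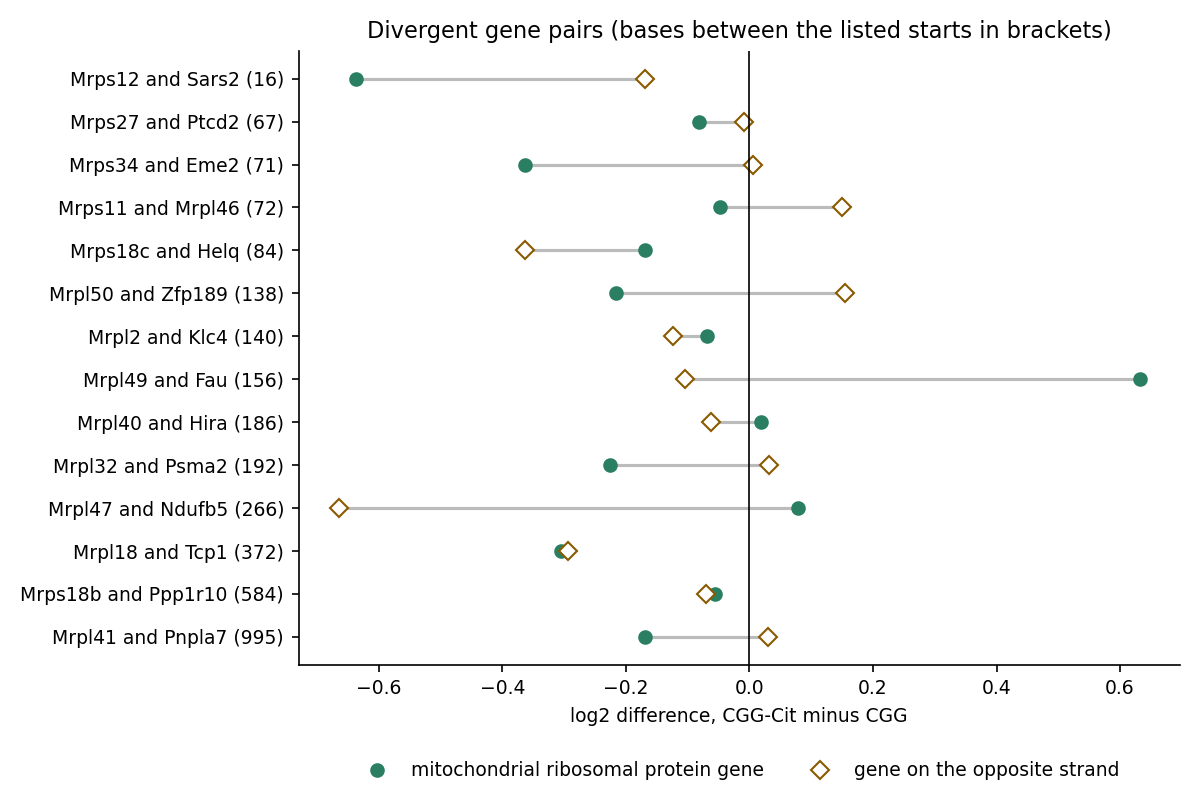
Log2 difference, CGG-Cit minus CGG, of both genes of the 14 divergent pairs in which both were tested, with the number of bases between their listed starts in brackets. Circles are mitochondrial ribosomal protein genes and diamonds their neighbours, with Mrpl46 drawn as the neighbour of Mrps11, and in 6 pairs both lie on the same side of 0 in FPKM as deposited (10 after TPM rescaling).

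Promoters, the bases from 250 before to 50 after the annotated start, were taken from RefSeq on the build GRCr8 for 60 of the 76 genes. They were searched on both strands for the core motifs of factors known to act on nuclear genes of mitochondria. The ETS core CCGGAAG, bound by GABP, was present in 35.0% of the 60 promoters, against 9.22% of all 27457 promoters and 13.6% of the 13552 promoters of protein-coding genes of the expression table. The core of NRF1, which reads GCGC, any base and TGCGC, was present in 15.0%, against 4.71% and 7.70%. The core AAGATGGCG of YY1 was present in 15.0%, against 1.93% and 2.83%. A GC box, GGGGCGGGG, was present in 11.7%, against 10.4% and 17.1%, and TATAAA in 11.7%, against 14.3% and 9.63%. The ETS and YY1 cores can share the letters AAG where they abut, and a match describes the letters, not a bound site.

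The promoters of 4 genes that fell and of Mrpl46 are shown because together they hold each of the first 3 motifs or none of them. Capitals mark the ETS, NRF1 or YY1 core on either strand, and each sequence runs 5′ to 3′ along its gene. Mrpl33 (chr6:30553938-30554237, minus strand) has 1 ETS core, Mrps21 (chr2:186103302-186103601, minus strand) has 1 read on the opposite strand, and Mrpl45 (chr10:82804789-82805088, plus strand) has 2 NRF1 cores. Mrps15 (chr5:143605891-143606190, plus strand) has none of the 3. Mrpl46 (chr1:142116981-142117280, minus strand) has 1 YY1 core, and its window overlaps that of its divergent partner Mrps11.
Mrpl33: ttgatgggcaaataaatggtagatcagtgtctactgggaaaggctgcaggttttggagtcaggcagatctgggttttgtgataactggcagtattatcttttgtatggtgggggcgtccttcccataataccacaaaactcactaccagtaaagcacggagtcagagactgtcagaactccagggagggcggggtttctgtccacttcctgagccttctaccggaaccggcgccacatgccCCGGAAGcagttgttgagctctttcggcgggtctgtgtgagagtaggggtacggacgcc
Mrps21: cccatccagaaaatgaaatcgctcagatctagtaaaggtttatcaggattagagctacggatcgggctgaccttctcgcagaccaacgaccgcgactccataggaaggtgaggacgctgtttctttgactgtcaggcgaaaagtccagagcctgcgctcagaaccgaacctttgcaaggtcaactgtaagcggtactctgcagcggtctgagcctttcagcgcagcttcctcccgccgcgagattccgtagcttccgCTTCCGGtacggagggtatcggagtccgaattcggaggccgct
Mrpl45: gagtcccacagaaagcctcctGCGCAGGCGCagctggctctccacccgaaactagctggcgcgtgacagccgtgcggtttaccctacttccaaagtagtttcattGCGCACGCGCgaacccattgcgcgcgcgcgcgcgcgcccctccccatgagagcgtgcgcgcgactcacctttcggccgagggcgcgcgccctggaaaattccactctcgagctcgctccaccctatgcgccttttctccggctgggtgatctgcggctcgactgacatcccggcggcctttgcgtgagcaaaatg
Mrps15: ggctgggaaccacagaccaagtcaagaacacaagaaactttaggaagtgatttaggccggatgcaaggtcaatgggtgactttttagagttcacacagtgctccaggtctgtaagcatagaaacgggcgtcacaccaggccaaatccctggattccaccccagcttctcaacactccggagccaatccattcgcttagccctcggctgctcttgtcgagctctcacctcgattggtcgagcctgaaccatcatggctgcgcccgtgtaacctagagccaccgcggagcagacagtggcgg
Mrpl46: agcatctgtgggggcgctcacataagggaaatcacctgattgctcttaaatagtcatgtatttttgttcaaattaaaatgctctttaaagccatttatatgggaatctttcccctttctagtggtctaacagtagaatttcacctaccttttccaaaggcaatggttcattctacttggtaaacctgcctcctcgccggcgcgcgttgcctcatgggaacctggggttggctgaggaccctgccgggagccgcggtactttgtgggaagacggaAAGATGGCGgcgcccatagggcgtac
Of the factors themselves, Nrf1 averaged 11.1 ± 0.926 FPKM in CGG-Cit and 14.8 ± 1.33 FPKM in CGG (SD, n = 3 each; limma adjusted p = 0.0574). Gabpb1, a GABP subunit gene, averaged 7.38 ± 0.470 FPKM in CGG-Cit and 9.82 ± 0.754 FPKM in CGG (SD, n = 3 each; limma adjusted p = 0.0551). The values of Gabpa, the gene of the GABP subunit that binds the ETS core, are not given here. Yy1 averaged 41.0 ± 2.65 FPKM in CGG-Cit and 46.7 ± 0.998 FPKM in CGG (SD, n = 3 each; limma adjusted p = 0.164). None of the 8 tested regulators passed with limma on FPKM, and 1, Nrf1, fell with voom (adjusted p = 0.0475), where 9.95% of all genes tested fell. At an unadjusted p under 0.05 there were 2 lower and 1 higher, where 18.6% and 16.7% of all genes tested were. Their median log2 difference was -0.16, and 0.00787 after TPM rescaling.

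In the lists of partners of the ribosome in mitochondrial translation, 0% to 8.33% of the tested genes fell in FPKM as deposited. Of all genes tested 9.78% did so. None in these lists rose, where 7.75% of all genes tested did. Of 12 tested translation factor genes 1 fell, Guf1, the back-translocating elongation factor, with 3.03 ± 0.0848 FPKM in CGG-Cit and 4.43 ± 0.422 FPKM in CGG (SD, n = 3 each; limma adjusted p = 0.0497), but it passed in 7 of 18 alternatives and overlaps Gnpda2. After TPM rescaling none of the 12 fell and 1 rose, Mrrf, the ribosome recycling factor, with 9.16 ± 1.18 FPKM in CGG-Cit and 7.11 ± 0.342 FPKM in CGG (SD, n = 3 each; limma adjusted p = 0.111 as deposited and 0.0459 after rescaling). Of all genes tested 13.8% rose and 5.94% fell after that rescaling. None of 20 tested genes on the mitochondrial aminoacyl-tRNA synthetase list passed with limma on FPKM or with voom, and none of 27 on the assembly and rRNA modification list. The synthetase list also holds Qrsl1, Gatb and Gatc, which encode an amidotransferase, and Kars, whose enzyme also serves the cytosol. The assembly list also holds Nop9, a nucleolar factor. In each list 2 were lower at an unadjusted p under 0.05, where 18.6% of all genes tested were. Their median log2 differences were -0.08 (synthetases) and -0.06 (assembly), and turned to 0.07 and 0.10 after TPM rescaling. Of 17 genes of mitochondrial transcription and mRNA handling 1 fell, Mss51, which in mammals is expressed mainly in skeletal muscle. Mss51 had 2.72, 2.57 and 3.56 FPKM in CGG-Cit libraries, against 32.5, 18.2 and 22.2 FPKM in CGG libraries, a log2 difference of -2.65 ± 0.219 (SE) with a limma adjusted p of 0.00260, and it passed under all 18 alternatives.

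Among 5 ribosome proteins whose symbols lie outside the Mrpl and Mrps pattern, 1 rose, where 7.75% of all genes tested did. This was Ptcd3, a small subunit protein with pentatricopeptide repeats. It had 118, 178 and 85.3 FPKM in CGG-Cit libraries, against 51.5, 37.3 and 39.8 FPKM in CGG libraries. The groups did not overlap, with CGG-Cit 2 the highest. Its log2 difference was 1.496 ± 0.270 (SE), with a limma adjusted p of 0.0193, and it passed in 15 of 18 alternatives. Polr1a, the largest subunit of RNA polymerase I, starts 260 bases away on the opposite strand, was looked up after the value of Ptcd3 was seen, and also rose, with 22.6 ± 5.87 FPKM in CGG-Cit and 8.48 ± 0.636 FPKM in CGG (SD, n = 3 each; limma adjusted p = 0.0135). The other 4 proteins, among them Chchd1, Gadd45gip1 and Dap3, did not pass.

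The mRNAs that this ribosome translates, and a list of nuclear genes for respiratory chain and ATP synthase subunits, had medians further from 0. That list includes complex II (Sdha, Sdhb, Sdhc and Sdhd), which has no mitochondrially encoded subunit. None of the 13 mitochondrially encoded mRNAs passed with limma on FPKM or with voom, and 6 were lower at an unadjusted p under 0.05, where 18.6% of all genes tested were. Their median log2 difference was -0.63, and in 11 of 13 every CGG-Cit value lay below every CGG value, where 22.1% of all genes tested did so. For ND2, the most different of them, the values were 2438, 2919 and 2683 FPKM in CGG-Cit libraries, against 3369, 6431 and 4261 FPKM in CGG libraries, with a limma adjusted p of 0.0918. CGG 2 was the highest. Of 20 tested nuclear genes on the list of respiratory chain and ATP synthase subunits 11 fell and none rose, with a median of -0.47. Of all genes tested 9.78% fell and 7.75% rose. Cox5a, a complex IV subunit, had 165, 139 and 148 FPKM in CGG-Cit libraries, against 216, 263 and 273 FPKM in CGG libraries, a log2 difference of -0.72 ± 0.124 (SE) with a limma adjusted p of 0.0179, and it passed in 15 of 18 alternatives. After TPM rescaling 6 of the 20 fell, where 5.94% of all genes tested did. The distance between their medians and those of the ribosomal protein genes was not tested.

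Of 13 tested import genes 1 fell (7.69%, where 9.78% of all genes tested fell). This was Pmpca, a subunit of the peptidase that removes targeting signals, with 18.6 ± 0.259 FPKM in CGG-Cit and 27.6 ± 1.76 FPKM in CGG (SD, n = 3 each; limma adjusted p = 0.0151). Pmpca overlaps Entr1, another listed gene. The 42 tested cytosolic ribosomal protein genes, a separate set, had a median log2 difference of -0.22 in FPKM as deposited and -0.04 after TPM rescaling.

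**Figure D5:**
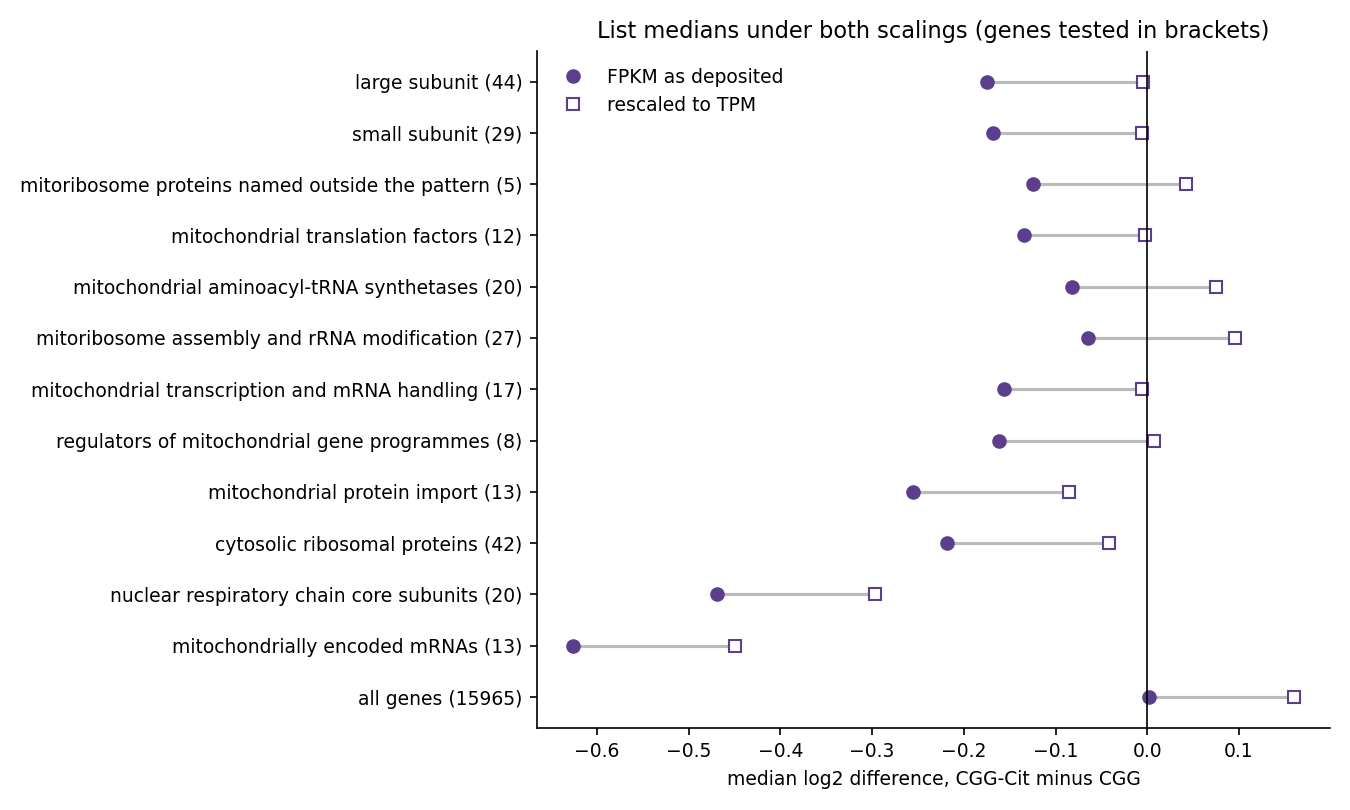
Median log2 difference, CGG-Cit minus CGG, of the genes tested in the 2 subunits, 10 lists of related genes and all genes (cell type markers are not drawn), for FPKM as deposited (filled circles) and after TPM rescaling (open squares). The rescaling moves every median drawn up, with all genes at 0.16, and the nuclear respiratory chain genes and the mitochondrially encoded mRNAs stay furthest to the left of those drawn.

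The order of the CGG-Cit libraries differed between marker lists. CGG-Cit 3 was the CGG-Cit library nearest to CGG in the muscle, neutrophil, erythroid, cycling and macrophage markers. It was the furthest from CGG in the fibroblast markers, whose mean log2 level relative to the 6 libraries was 0.33, 0.43 and 0.68 in CGG-Cit, against -0.37, -0.29 and -0.78 in CGG. In the osteoblast markers CGG-Cit 1 was the furthest, at -1.03, -0.15 and -0.17 in CGG-Cit, against 0.26, 0.52 and 0.58 in CGG. The same mean of the small subunit genes was -0.05, -0.10 and -0.17 in CGG-Cit, with CGG-Cit 3 the lowest. In CGG it was 0.01, 0.13 and 0.18. For the large subunit genes it was 0.00241, -0.10 and -0.09 in CGG-Cit, against -0.00659, 0.07 and 0.13 in CGG, so that CGG-Cit 1 lay above CGG 1 and the groups overlapped.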

How the data were processed

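Per the file headers, the authors deposited 1 table of FPKM with gene coordinates, length and type for 6 libraries. Per the submitters' processing notes, the build was mRatBN7.2 and the tools were HISAT2 2.0.5, DESeq2 1.20.0 and featureCounts 1.5.0-p3, each without a stated role. Strand setting, annotation release and the coordinates' build are not stated in the labels or the table. FPKM multiplied with gene length, and divided by a unit fitted to each library, gave whole fragments in 100% of positive values, within 0.01. The fitted unit also gave the library size that the FPKM imply. Groups and replicate numbers came from the sample titles. The 15965 genes averaging 0.5 FPKM or more were tested with limma 3.58.1 in R 4.3.3 (lmFit, then eBayes with a trend) on log2(FPKM + 1), without a block, two-sided, CGG-Cit minus CGG, a scale that understates changes of low genes. The test was also run on simulated counts of 15965 genes, with 100 genes changed at each fold. It recovered 84.0% of 2-fold and 25.0% of 1.5-fold changes, with 6 false calls among 115 calls. The changed genes were drawn only from genes above a minimum of fragments in CGG. Every gene was given the same assumed spread between libraries, so the rates do not cover low or more variable genes. Lists were described by counts and medians only, and single cytosolic ribosomal protein genes are not reported here. The genes, lists and tests were chosen with earlier results of these data known. Named genes were those with the smallest p in each direction, the highest and lowest levels, the widest spread, fixed roles, and up to 4 per list by p. Tables were made with Python 3.11.15 and pandas 2.3.3. Processed copies of these genes elsewhere in the genome were not examined. The alternatives were other pseudocounts, filters, scalings and thresholds, variance options, voom on the recovered fragments, the replicate number as a block, and each library left out.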

Additional observations from a re-analysis of the deposited data

How the results depend on the processing

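With 3 libraries a group, leaving each library out in turn gave 0 to 1 higher and 0 to 3 lower large subunit genes, and 0 to 4 lower small subunit genes. The medians then ran from -0.25 to -0.14 (large subunit) and from -0.27 to -0.14 (small subunit), and calls over all genes from 122 to 1312 higher and from 190 to 1622 lower. TPM rescaling gave 1 higher and 0 lower large subunit genes, 0 lower small subunit genes, medians of -0.00433 and -0.00533, and 2203 higher and 948 lower calls over all genes, against 1237 and 1561 as deposited. With array quality weights 1 large subunit gene was higher. With limma's voom on the recovered fragments 2 large subunit genes were lower. At an adjusted p under 0.1, 1 large subunit gene was higher, 10 large and 8 small subunit genes were lower, and 2083 genes in all were higher and 2413 lower.

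No label says whether the replicate numbers pair the libraries. Deviations of libraries with the same number from their group means correlated at -0.0956, 0.00165 and -0.0779 across genes. No shared effect of the number was visible, but with 3 libraries a group this cannot show whether they were paired. With the replicate number as a block, 0 large and 1 small subunit gene (Mrps12) were lower, and 612 genes in all were higher.

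Single genes near 0 changed sign. Under TPM rescaling this held for 19 of the 73 tested genes, none of them with an unadjusted p under 0.05 as deposited. Those named in the text were Mrpl17 (0.17), Mrpl27 (0.0818), Mrpl41 (0.00118), Mrps18b (0.11), Mrps2 (0.13), Mrps22 (0.12), Mrps27 (0.0806), Mrps11 (0.12) and Mrps17 (0.01). With array quality weights it held for Mrpl17 (0.0167), Mrps2 (0.0240) and Mrpl30 (-0.36). With the recovered fragments as library size, a setting added after the data were seen, 2 large subunit genes were lower, and Mrpl17 (0.0329) and Mrps2 (0.0102) changed sign. With quantile normalization Mrps2 was at 0.00529, and with equal totals without the 50 most abundant genes Mrpl3 was at -0.0118. Leaving out single libraries gave ranges of -0.20 to 0.77 for Mrpl1, -0.0731 to 0.0338 for Mrpl17, -0.23 to 0.0143 for Mrpl27, -0.0814 to 0.0691 for Mrpl3, -0.34 to 0.54 for Mrpl30, -0.18 to 0.10 for Mrps18b, -0.36 to 0.0103 for Mrps18c, -0.12 to 0.0746 for Mrps2 and -0.17 to 0.0410 for Mrps22. The cause was not tested. The simulation recovered 25.0% of 1.5-fold changes, with 115 calls in all. The data gave 1237 higher and 1561 lower calls, so that rate cannot be carried over to these genes.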

Other observations

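Mrps17, a small subunit gene picked after its values were seen, varied less between libraries of a group than the other tested members. It had 18.03, 17.85 and 17.90 FPKM in CGG-Cit libraries, against 20.3, 20.1 and 19.9 FPKM in CGG libraries, so the groups did not overlap. Its log2 difference was -0.16 ± 0.0764 (SE), and with limma's variance, which borrows from genes of like level, its adjusted p was 0.195. After TPM rescaling its difference was 0.01. In 37 of 42 cytosolic ribosomal protein genes every CGG-Cit value lay below every CGG value in FPKM as deposited, where 22.1% of all genes tested did so. Their summed level was 20240, 19240 and 20130 FPKM in CGG-Cit libraries, against 22540, 23510 and 23140 FPKM in CGG libraries. Their share of all FPKM was 3.76%, 3.55% and 3.77% in CGG-Cit libraries, against 3.97%, 3.59% and 3.82% in CGG libraries, so the groups overlapped in this share.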
